A study of Mus musculus with 36 samples.

Results

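The 9 Hox genes Hoxa2, Hoxa3, Hoxa4, Hoxa5, Hoxb1, Hoxb2, Hoxb3, Hoxb4 and Hoxb5 belong to paralogue groups 1 to 5, the anterior end of the Hox clusters. They were taken from the expression array by gene symbol, which gave 17 of its 45281 probes, and all 17 were followed over all 36 arrays. RNA came from whole male C57BL/6J mouse embryos at 9.5 days post coitum, 1 embryo per array. The mothers of the 12 Control embryos drank water, those of the 12 Ethanol embryos chose to drink 10% (v/v) ethanol, and those of the 12 Nicotine embryos chose to drink freebase nicotine at 100 µg/ml, in both cases between days 0.5 and 8.5 post coitum. All 3 groups shared strain, sex and age. Mother, litter and slide are not among the labels, so the p-values measure the spread between these embryos only.

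Hox genes encode homeodomain transcription factors that give cells their position along the head-to-tail axis. They lie in clusters, and genes nearer the 3′ end of a cluster, the low paralogue groups, are switched on earlier and reach further forward than those of the high groups. At this stage the anterior Hox genes mark the segments of the hindbrain (the rhombomeres), the neural crest of the pharyngeal arches, the cervical somites and the spinal cord, and retinoic acid, CDX proteins and the Hox proteins themselves, with their PBX and MEIS partners, are known to control them. In the GRCm38.p6 annotation of RefSeq, Hoxa2 (chr6:52162417-52164831), Hoxa3 (chr6:52169059-52213067), Hoxa4 (chr6:52189682-52191703) and Hoxa5 (chr6:52201754-52204587) lie on chromosome 6. Hoxb5 (chr11:96303512-96306121), Hoxb3 (chr11:96307101-96347930), Hoxb4 (chr11:96318267-96321638), Hoxb2 (chr11:96351632-96354020) and Hoxb1 (chr11:96365746-96368254) lie on chromosome 11.

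The RefSeq promoter table for GRCm38.p6, with 300 bases per gene from 250 before to 50 after the start, held 5 of the 9 genes, Hoxa2, Hoxa3, Hoxa5, Hoxb1 and Hoxb4. The promoters of Hoxb1 and Hoxa2 are shown because these 2 genes differed most in how they varied between embryos, as described further on, and because each holds a match to TGATNNAT, the form of site bound jointly by PBX and an anterior Hox protein. The mouse Hoxb1 gene is known to maintain its own expression in a hindbrain segment through such sites. Capitals mark the match. Hoxb1 is read from the plus strand (chr11:96365508-96365807) and Hoxa2 from the minus strand (chr6:52164782-52165081).
Hoxb1: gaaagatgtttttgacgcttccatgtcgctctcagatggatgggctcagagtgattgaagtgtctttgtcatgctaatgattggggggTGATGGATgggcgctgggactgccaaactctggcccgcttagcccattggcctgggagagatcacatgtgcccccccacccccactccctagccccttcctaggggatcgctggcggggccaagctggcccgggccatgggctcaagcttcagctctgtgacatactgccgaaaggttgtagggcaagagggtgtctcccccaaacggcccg
Hoxa2: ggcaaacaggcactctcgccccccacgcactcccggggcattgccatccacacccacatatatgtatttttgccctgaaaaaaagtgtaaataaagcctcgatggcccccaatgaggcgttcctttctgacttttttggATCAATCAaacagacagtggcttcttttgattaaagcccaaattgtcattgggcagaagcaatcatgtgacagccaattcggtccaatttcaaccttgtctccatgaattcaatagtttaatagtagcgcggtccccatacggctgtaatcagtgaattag
The match began at position -162 from the start in Hoxb1, on the strand of the gene, and at position -111 in Hoxa2, on the opposite strand. Positions count from the start used by the promoter table, which for Hoxb1 is not the gene start given above. Both strands were searched, and 8.85% of all 32851 promoters in the table held the motif. The half-site of retinoic acid receptors, AGGTCA, was matched at position 42 in Hoxa5 and at position -81 in Hoxb4, and in 16.3% of all promoters. The CDX motif TTTATG was found in none of the 5 promoters and in 11.9% of all. None of these motifs overlapped another, and a match is a description of the letters only.

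On the array, 11 probes of 8 of the genes reached an intensity of 32 on at least 12 of the 36 arrays and were tested, as were 16927 probes in all. Hoxa3, which patterns the third pharyngeal arch and its thymus and parathyroid, was below this minimum: its 4 probes had median intensities of 11.6, 9.57, 4.18 and 2.76, and the highest value on any array was 24.6. Hoxb3, which acts in the caudal hindbrain, had 4 probes, of which 2 were kept, 1 of them at or above 32 on 20 arrays and the other on 14. The other 2 reached 32 on 1 and 0 arrays. Hoxb3 is therefore a dim gene here, and nothing can be said of Hoxa3. Hoxb1 and Hoxa2 had 2 kept probes each and the other genes 1. The probe sequences were not examined, so binding of a probe to a paralogue was not checked.

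All levels below are the deposited intensity, in linear units, and all differences are log2 differences of group means of log2(intensity + 16), which understates the change of dim probes. The arrays had nearly equal distributions, with medians of 10.7 to 10.8. Over all probes the arrays fell into 2 sets by replicate number, 1 to 6 and 7 to 12, in every group. For that reason differences are also given within each set and from a fit with the set as a fixed effect. Each comparison was fitted with limma without a block, as the main result, and also with the replicate number as a block. The labels state no pairing by number, so the block assumes one and is not only a correction for the sets. The Y-linked transcripts Eif2s3y, Kdm5d and Uty were above the minimum and Xist, the transcript of the inactive X chromosome, was below it. The label male would give this, but a minimum that needs only 12 arrays does not check each embryo. Kdm5d and Uty differed from Control by 0.11 and 0.11 in Nicotine and by 0.14 and -0.00 in Ethanol, none past the threshold.

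Nicotine against Control asks how maternal nicotine in early gestation left the anterior Hox code of the embryo. Hoxb1, the group 1 gene that specifies the fourth rhombomere and the facial motor neurons, was the member with the highest values relative to Control, at 1.66 and 1.62 times the Control level for its 2 probes. Without the block no member passed an adjusted p of 0.05, among 1 of 16927 probes that did (0.00591%). With the block 2 of 11 member probes rose, both of Hoxb1, against 1.15% of all probes (194 of 16927) called in either direction and 0.668% called higher. At an unadjusted p of 0.05, 6.51% of all probes and 2 of 11 member probes passed without the block, and 17.7% and 2 of 11 with it, both being Hoxb1. Of the 11 member probes 8 lay above Control, with a median of 0.08. Over all probes 51.4% lay above Control and the median was 0.00. In whole embryos a lower or higher level cannot be told apart from fewer or more cells of a type.

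For the brighter Hoxb1 probe (ILMN_2818750) the intensity in the 12 Control embryos ran from 148 in Control 2 over a median of 191 to 292 in Control 9. In Ethanol it ran from 177 over 238 to 456, with the top value in Ethanol 7, and in Nicotine from 156 in Nicotine 12 over 374 to 544 in Nicotine 8. The Nicotine embryos sat high but did not leave the Control range altogether: 9 of 12 were above the highest Control embryo, 11 of 12 were above the Control median, and Nicotine 12, 5 and 9 were the 3 that stayed inside. The mean intensity was 207 ± 49.4 (SD, n = 12) in Control, 257 ± 79.8 in Ethanol and 368 ± 120.0 in Nicotine, an order in which neither neighbouring pair differed past the threshold. The second probe (ILMN_1240198) ran from 94.6 over 149 to 239 in Control, from 119 over 178 to 283 in Ethanol and from 117 over 274 to 421 in Nicotine. The same 3 Nicotine embryos were the lowest of their group for it, and again 9 of 12 exceeded every Control embryo. The probes followed each other closely, with r = 0.93 over 36 arrays after the mean of each group and set was removed.

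**Figure D1:**
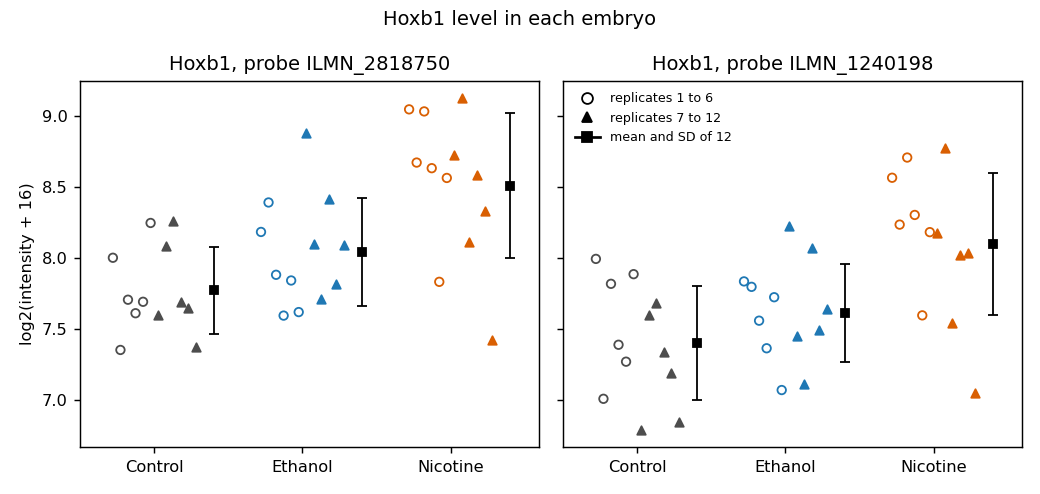
Level of Hoxb1 in every embryo, as log2(intensity + 16), for its 2 probes (panels) and 3 groups. Open circles are replicates 1 to 6, filled triangles replicates 7 to 12, and black squares with bars the mean and SD of 12 embryos. For both probes 9 of 12 Nicotine embryos lie above the highest Control embryo, while Nicotine 12 lies near the bottom of the Control range.

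The Hoxb1 difference between Nicotine and Control was 0.74 (SE 0.162, 95% confidence interval 0.41 to 1.06) for the brighter probe and 0.70 (SE 0.168, 0.36 to 1.04) for the other. Its unadjusted p was 6.2e-05 and 0.000187, and the adjusted p in limma was 0.216 for both without the block. With the block it was 0.0215 and 0.0278, and with only the 2 sets as a fixed effect 0.0613 and 0.0624, a fit that called 0.0177% of all probes. The size of the difference does not change between these fits, only its error. With embryos matched by equal number, a pairing that the labels do not state, Nicotine exceeded Control in 11 of 12 pairs for both probes. Pair 9 was the exception, at -0.15 and -0.14, and the other pairs of the brighter probe reached up to 1.33.

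The blocked call of Hoxb1 depended on which pairs were included. When each pair was left out in turn, the difference of the brighter probe stayed between 0.68 and 0.82 and its adjusted p in the blocked fit ran from 0.0132 to 0.0764, past the threshold in 9 of 12 cases and lost without replicate 2, 6 or 7. The other probe kept 0.64 to 0.77 with adjusted p from 0.0206 to 0.104, and passed in 6 of 12 cases, failing without replicate 2, 6, 7, 8, 10 or 11. Without the block neither probe passed in any of these cases. Within replicates 1 to 6 the brighter probe differed by 0.86 (SE 0.228, adjusted p 0.0487 in limma, among 1.3% of all probes called there) and within replicates 7 to 12 by 0.61 (SE 0.228, adjusted p 0.947). For the other probe the values were 0.70 (adjusted p 0.111 in limma) and 0.69 (adjusted p 0.779), so the call within replicates 1 to 6 held for only 1 of the 2 probes. The difference between the sets was -0.25 (95% interval -0.91 to 0.40) and -0.01 (-0.67 to 0.65), so both sets gave a positive Hoxb1 difference and a change of its size between sets was not detectable.

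Genes of the tail bud, the growing caudal end of the embryo where Hoxb1 is also known to be active, also stood higher in the Nicotine embryos. All 10 tested genes of a tail bud list, chosen with earlier results of these data known, were above Control in Nicotine, with a median of 0.74. Over all probes 51.4% were above Control. With the block 6 of the 10 rose, against 0.668% of all probes called higher, and none passed without it. Among the 6 were Cdx2, a caudal homeobox factor, at 1.32 (SE 0.405, adjusted p 0.294 without and 0.0334 with the block), Tbx6, the T-box factor of presomitic mesoderm, at 1.31 (0.273 and 0.0273) and Evx1 at 1.18 (0.357 and 0.0440). Blocked calls depended on single replicates: over all probes there were 194, but 0 without replicate 6 or 7 and 1 without replicate 2. This limit holds for every blocked call of a list gene below. The smallest unadjusted p of the list belonged to the signal gene Wnt3a, at 0.64 (SE 0.150, adjusted p 0.216 without and 0.0435 with the block), and to the homeobox gene Nkx1-2, at 1.15 (0.251 and 0.0273). The summed intensity of these 10 genes ran from 1460 over a median of 2704 to 4684 in Control, from 1686 over 2516 to 5329 in Ethanol and from 2097 over 5283 to 7667 in Nicotine. Genes of later stages went the other way in sign: 0 of 10 were above Control, with a median of -0.25, and none passed. Dcx, a gene of migrating neurons, and Col2a1, a cartilage collagen, had the smallest p, at -0.71 (SE 0.282, adjusted p 0.560 without and 0.104 with the block) and -0.17 (0.681 and 0.130). Their summed intensity had a median of 17242 in Control and 16905 in Nicotine, with lowest values of 14102 and 7119. Of the tail bud list, T and Msgn1 had no probe under that name, and Hes7 and Mesp2 were below the minimum. Whether the Hoxb1 difference remains at equal tail bud or stage marker levels was not tested.

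The group 2 genes set the identity of rhombomeres and of the second pharyngeal arch, where Hoxa2 is the selector that keeps the arch from forming first-arch structures. Hoxa2 (ILMN_2874270) ran from 192 over 424 to 687 in Control, from 148 over 471 to 682 in Ethanol and from 179 over 402 to 579.8 in Nicotine. The groups overlapped almost fully. Its difference between Nicotine and Control was -0.08 (95% interval -0.48 to 0.32) and that of its second probe -0.06 (-0.55 to 0.43). Hoxb2, which acts with Hoxb1 in the facial motor nucleus, ran from 567 over 773 to 946 in Control, from 537 over 816 to 986 in Ethanol and from 585 over 860.3 to 952 in Nicotine. It was the steadiest of the tested members, with an SD of 0.24 (log2) over all 36 arrays, and its difference was 0.08 (-0.12 to 0.28).

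Of the group 3 genes only Hoxb3 could be tested. Its brighter kept probe (ILMN_3071262) ran from 25.7 over 43.0 to 53.1 in Control, from 13.1 over 30.7 to 89.7 in Ethanol and from 18.4 over 42.7 to 80.1 in Nicotine. For this probe the treated groups were wider at both ends, with Ethanol 10 and Nicotine 8 at the top, and their medians did not exceed that of Control. Replicates 7 to 12 were higher than 1 to 6 by 0.43 in Control, 0.78 in Ethanol and 0.74 in Nicotine, which is part of that spread. The second kept probe (ILMN_3150064) did not show wider treated groups, with an SD (log2) of 0.40 in Control, 0.30 in Ethanol and 0.37 in Nicotine. The differences between Nicotine and Control were 0.03 (-0.33 to 0.39) and 0.06 (-0.23 to 0.34) for the 2 probes.

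Groups 4 and 5 pattern the caudal hindbrain, the cervical vertebrae and the organs beside them. Hoxa4, which shapes cervical vertebrae, ran from 75.6 over 136 to 237 in Control, from 71.8 over 225 to 278 in Ethanol and from 110.4 over 184 to 311 in Nicotine. The ranges overlapped, although 5 of 12 Nicotine and 4 of 12 Ethanol embryos were above the highest Control embryo. Hoxa4 differed by 0.32 (SE 0.203, -0.10 to 0.73) between Nicotine and Control. Hoxb4, a group 4 gene also known in blood stem cells, was the member furthest below Control, at -0.13 (-0.38 to 0.12), with medians of 383 in Control, 375 in Ethanol and 328 in Nicotine. Hoxa5, needed for the lung and the cervicothoracic skeleton, differed by 0.19 (-0.24 to 0.62), with medians of 684, 792 and 717. Hoxb5, known in enteric neural crest, differed by 0.19 (-0.10 to 0.49), with medians of 587, 724 and 668. None of these genes passed in either fit, and with the block the adjusted p of the members other than Hoxb1 ran from 0.436 to 0.913.

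**Figure D2:**
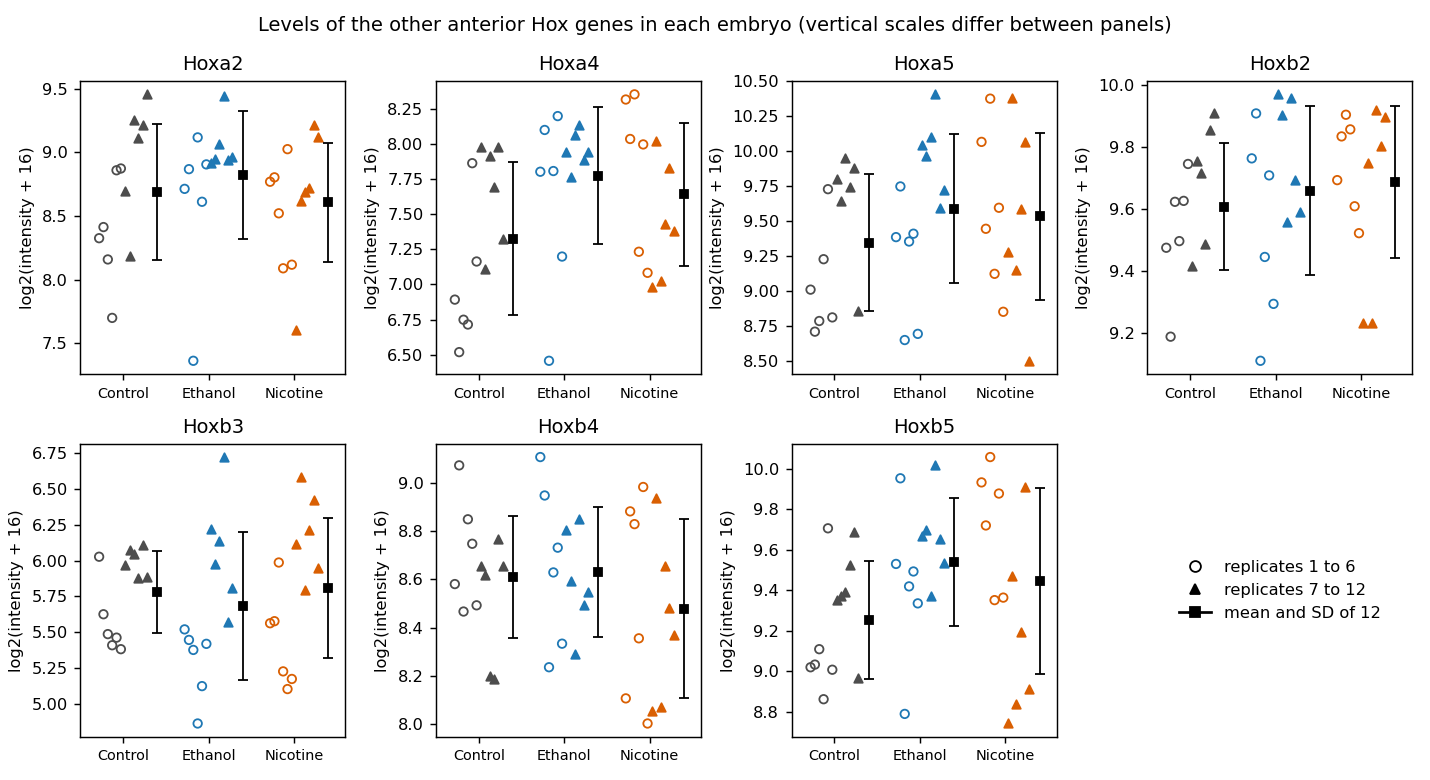
Level of the brighter kept probe of each of the other 7 tested genes in every embryo, as log2(intensity + 16), by group, with a vertical scale of its own in each panel. Symbols are as for Hoxb1, with the mean and SD of 12 embryos in black. In each panel the 3 groups overlap over most of their range.

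**Figure D3:**
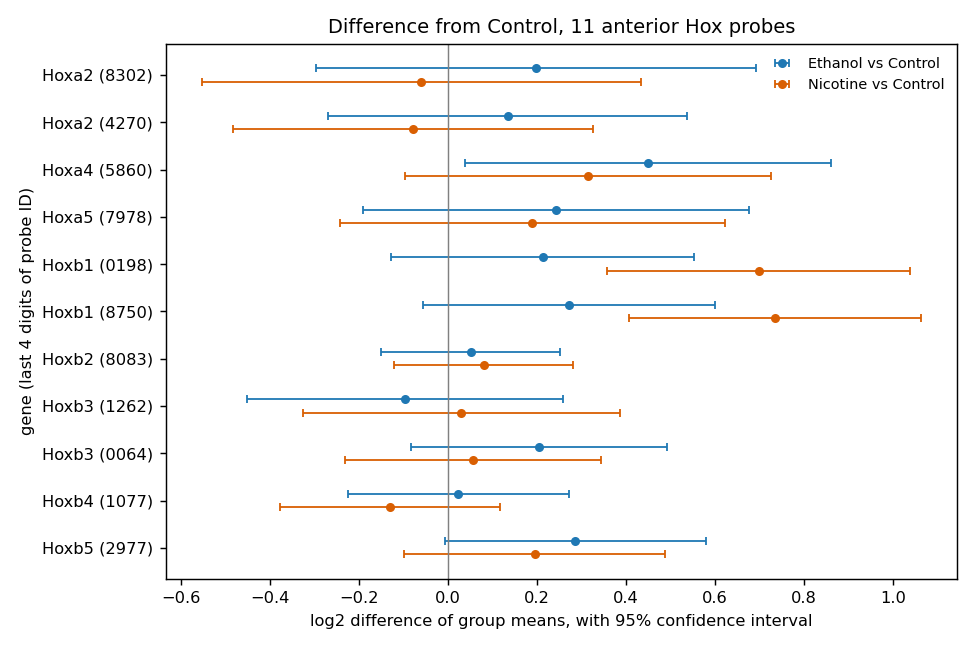
Log2 differences from Control for the 11 tested probes, with 95% confidence intervals without a block, for Ethanol and for Nicotine. The 2 Hoxb1 probes have Nicotine intervals of 0.41 to 1.06 and 0.36 to 1.04, and apart from these only Hoxa4 in Ethanol, at 0.04 to 0.86, has an interval that lies above 0.

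Ethanol against Control asks the same of maternal ethanol. No member passed in either fit, as was the case for all 16927 probes (percent called 0 with limma, with and without the block). At an unadjusted p of 0.05, 1.05% of all probes and 1 of 11 member probes passed without the block, and 4.63% and 1 of 11 with it. That member was Hoxa4, higher in Ethanol by 0.45 (SE 0.203, 0.04 to 0.86, unadjusted p 0.0334, adjusted p 0.99998) and in 9 of 12 pairs matched by number only. Of the 11 member probes 10 lay above Control, with a median of 0.20, against 50.9% of all probes and a median of 0.00. The members share embryos and partly vary together, so these are not 10 separate observations.

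Hoxb5 was higher in Ethanol by 0.29 (-0.01 to 0.58), with 11 of 12 Ethanol embryos above the Control median. Hoxb1 was higher by 0.27 (-0.06 to 0.60) and 0.21 (-0.13 to 0.55), and Hoxa5 by 0.24 (-0.19 to 0.68). These intervals all hold 0, so neither a rise nor its absence is shown. The values for Hoxa2 were 0.13 (-0.27 to 0.54) and 0.20 (-0.30 to 0.69), for Hoxb2 0.05 (-0.15 to 0.25) and for Hoxb4 0.02 (-0.23 to 0.27). The 2 Hoxb3 probes disagreed in sign, at -0.10 (-0.45 to 0.26) and 0.20 (-0.08 to 0.49).

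Set directly against Ethanol, the Nicotine embryos had more Hoxb1 signal by 0.46 (SE 0.162, 0.13 to 0.79) and 0.49 (SE 0.168, 0.15 to 0.83). The adjusted p in limma was 0.611 and 0.589 without the block and 0.168 and 0.164 with it, so a Hoxb1 effect particular to nicotine was not shown. No member passed in either fit, against 0 of all 16927 probes called without the block and 0.408% with it. At an unadjusted p of 0.05 it was 2 of 11 in both fits, both Hoxb1, against 4.93% and 13.9% of all probes. The 9 other member probes differed by -0.26 to 0.13, and 4 of the 11 lay above 0.

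The estimated treatment differences of several members were not alike in the 2 sets of replicates. In replicates 1 to 6, Nicotine exceeded Control by 0.85 for Hoxa4 (SE 0.255), by 0.59 for Hoxb5 (SE 0.179) and by 0.53 for Hoxa5 (SE 0.262). In replicates 7 to 12 the same genes differed by -0.22, -0.21 and -0.15. The medians of Hoxa4 show it: 97.1 in Control and 243 in Nicotine in the first set, 208 in Control and 153 in Nicotine in the second. The term for the difference between sets was -1.07 for Hoxa4 (SE 0.361, unadjusted p 0.00529, adjusted p 0.467 in limma), -0.80 for Hoxb5 (SE 0.253, unadjusted p 0.00331, adjusted p 0.445) and -0.68 for Hoxa5 (SE 0.371, adjusted p 0.752). None passed, and neither did any of the 16927 probes (1175 at an unadjusted p of 0.05). The pooled Hoxa4, Hoxa5 and Hoxb5 differences are thus means of estimates of opposite sign, but a change of sign between sets was not shown. What the sets are is not given in the labels.

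**Figure D4:**
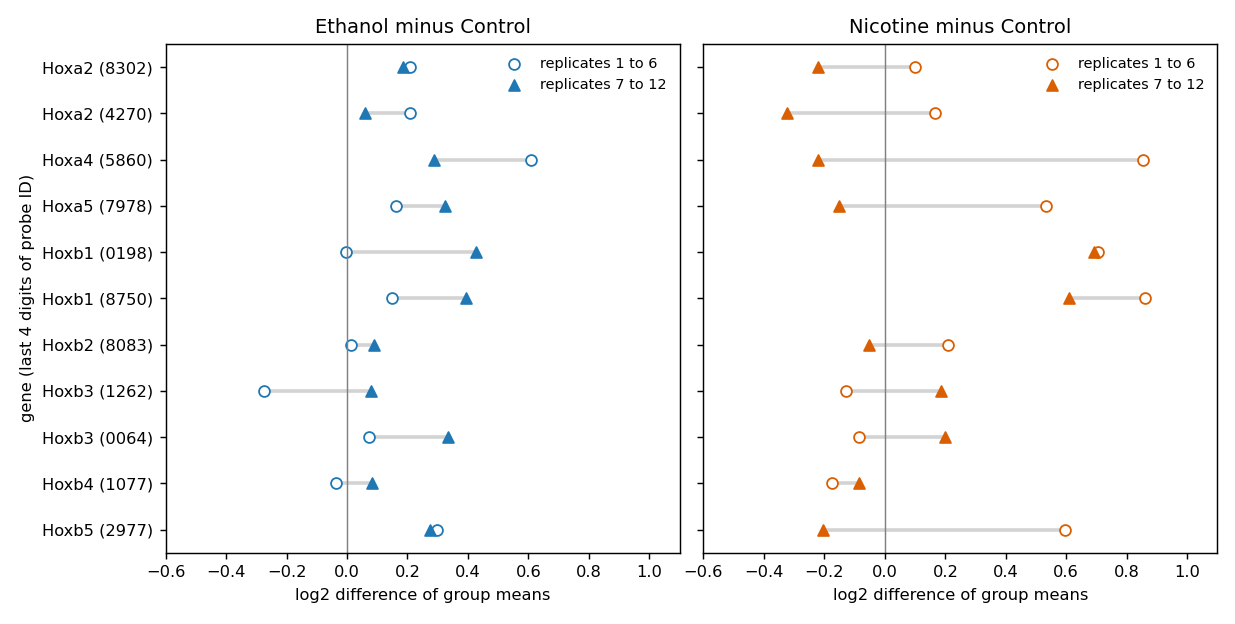
Log2 difference from Control within replicates 1 to 6 and within replicates 7 to 12 for the 11 tested probes, for Ethanol (left) and Nicotine (right). Open circles are replicates 1 to 6, triangles replicates 7 to 12, and a grey line joins the 2 values of a probe without being an error bar. The Nicotine values of Hoxa4 (0.85 and -0.22) and Hoxb5 (0.59 and -0.21) lie on opposite sides of 0, while those of Hoxb1 (0.86 and 0.61, 0.70 and 0.69) lie on the same side.

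After ethanol the difference between sets passed an unadjusted p of 0.05 for 0 of 11 member probes and for 2.3% of all probes. After nicotine it did so for 2 of 11, against 6.94%. In Ethanol 8 of 11 member probes lay above Control in replicates 1 to 6 and 11 of 11 in replicates 7 to 12, against 52.7% and 48.5% of all probes. Hoxa4 differed by 0.61 and 0.29, Hoxb5 by 0.30 and 0.27, and the brighter Hoxb1 probe by 0.15 and 0.39. No probe of the array passed within either set (percent called 0). After nicotine the counts above Control were 8 and 4 of 11, against 53.7% and 51.2% of all probes.

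The sets also differed in the levels themselves, as a description. Hoxa2 was 0.39 and 0.78 higher in replicates 7 to 12 over all groups for its 2 probes, Hoxb3 0.65 and 0.28, and Hoxa5 0.43. Hoxa4 was higher there by 0.68 in Control and by 0.36 in Ethanol but was -0.39 in Nicotine. For Hoxb5 the second set was higher by 0.26 in Control and by 0.24 in Ethanol but was -0.54 in Nicotine, so that the value over all groups, -0.01, does not describe any of them. The 2 Hoxb1 probes gave 0.01 and -0.32 in Control, 0.25 and 0.11 in Ethanol and -0.24 and -0.33 in Nicotine. Over all groups the value was 0.10 for Hoxb2 and -0.12 for Hoxb4.

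Single embryos stood high or low for many members at once. Ethanol 3 had the lowest Ethanol value on 8 of 11 probes and was below its group mean for all 8 genes, by a median of -0.65. Ethanol 10, Nicotine 8 and Ethanol 7 were above their group means for all 8 genes, the first 2 by a median of 0.42 and Ethanol 7 by 0.24. Ethanol 10 held the highest Ethanol value on 6 of 11 probes and Nicotine 8 the highest Nicotine value on 5. Among Control embryos the spread was smaller, with medians from -0.35 in Control 2 to 0.38 in Control 11. All these medians are taken from group means and still hold the shift between the sets. With the mean of each group and set removed, Ethanol 3 was at -0.49, Ethanol 10 at 0.31, Nicotine 8 at 0.46 and Ethanol 7 at 0.11. The highest Ethanol embryo was then Ethanol 2, at 0.42.

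The tested anterior Hox genes mostly varied together, to unequal degrees. After the mean of each group and set was removed, over 36 arrays, 6 of the 8 correlated above 0 with all 7 others, and Hoxb1 and Hoxa2 with 6 of 7, each other being the exception. The median r with the 7 others ran from 0.285 for Hoxb1 to 0.53 for Hoxa5, while the median over all genes ran from -0.013 to 0.027. Hoxa4, Hoxa5 and Hoxb5 formed the tightest group, with r = 0.80 between Hoxa4 and Hoxb5, 0.79 between Hoxa5 and Hoxb5 and 0.77 between Hoxa4 and Hoxa5. Hoxb1 followed Hoxb3 (r = 0.56) and Hoxa5 (0.54) more than Hoxb4 (0.09), and ran weakly against Hoxa2 (-0.19). The Hoxb3 value comes from a dim probe. It was 0.37 for the other kept Hoxb3 probe, and 0.34 for the same probe with only group means removed. Hoxb2 and Hoxb4 followed each other at 0.51. Neighbours in a cluster were thus not always the closest in level. These arrays share an overall normalization, and the values describe likeness between embryos only.

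Hoxb1 and Hoxa2 stood at opposite ends in their relation to tail bud genes. Hoxb1 correlated above 0 with 10 of 10 of them (median r 0.576) and Hoxa2 with 0 of 10 (median r -0.539), where the median over all genes was -0.00136 and 0.0171. Cdx2, Cdx4 and Cyp26a1, which encodes the enzyme that clears retinoic acid from the tail bud, had r = -0.665, -0.631 and -0.678 with Hoxa2. With Hox genes of groups 6 to 13 the median r was 0.605 for Hoxb1, 0.564 for Hoxb3, 0.478 for Hoxa5 and -0.435 for Hoxa2. The Hoxb3 value is from its dim probe, whose r with its 3 closest genes fell to 0.200, 0.224 and -0.00987 with only group means removed. With the later-stage list it was -0.297 for Hoxb1 and 0.399 for Hoxa2. Hoxa4 and Hoxb5 lay between, with tail bud medians of -0.181 and -0.179, and Hoxa4 had a median of 0.408 with the PBX and MEIS class of cofactors, the highest of its lists that hold no Hox gene.

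**Figure D5:**
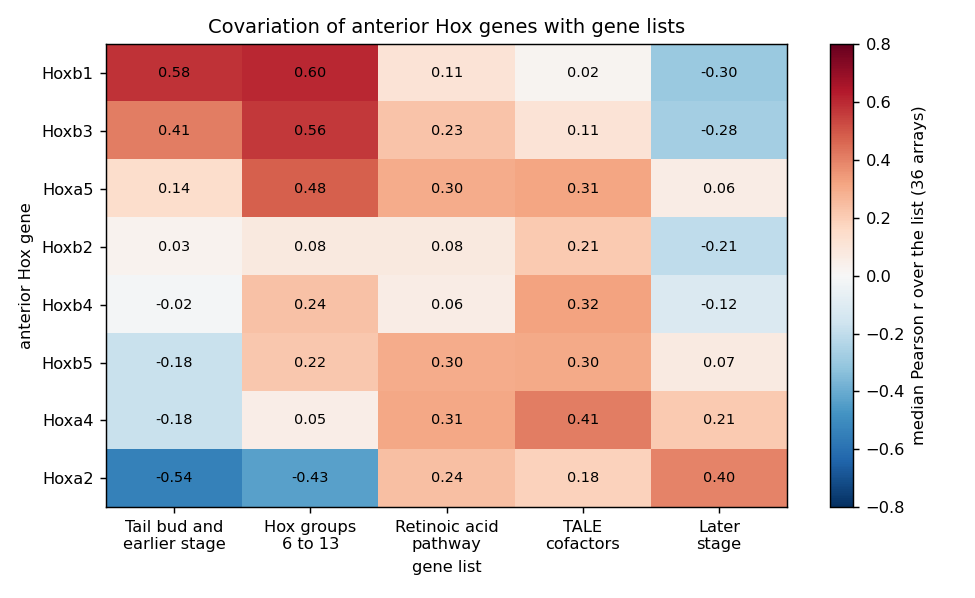
Median Pearson r between each tested anterior Hox gene (rows) and the genes of 5 of the lists (columns), as colour and number, over 36 arrays after the mean of each group and replicate set was removed. Hoxb1 and Hoxb3 have tail bud medians of 0.576 and 0.41, and Hoxa2 has -0.539. The Hoxb3 row rests on a dim probe.

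The named genes most like each member, among 9682 genes and by the same r over 36 arrays, were found for each. Hoxa2 was closest to Msx3, a homeobox gene of the dorsal neural tube (0.80), Ckb, brain creatine kinase (0.767), and Sstr2, a somatostatin receptor (0.758). Hoxb1 was closest to Arhgap24 (0.776), Hoxd8 (0.760) and Greb1 (0.755). Hoxa4 was closest to Hoxb5 (0.799), Hoxa5 (0.770) and Tshz3 (0.753). Hoxa5 was closest to Hoxb5 (0.794), then Hoxa4 and Jaml (0.765), and Hoxb5 to Jaml (0.822), then Hoxa4 and Hoxa5. The members of clusters A and B that gave these pairs lie on different chromosomes. Hoxb3 was closest to Etv4 (0.706), a target of FGF signalling, Cdx1 (0.691) and D10Wsu102e (0.687), and these 3 fell to 0.200, 0.224 and -0.00987 when only group means were removed. Hoxb4 was closest to Pih1d1 (0.690), Pbx2 (0.669), which encodes a Hox cofactor, and Abhd11os (0.648). With only group means removed these were 0.559, 0.383 and 0.332. Hoxb2 had the lowest top values, with Zfp566 (0.643), Lonrf3 (0.599) and Thap1 (0.556), which were 0.401, 0.618 and 0.532 with only group means removed.

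Other genes of the Hox system were described by list. Of the remaining Hox genes of groups 1 to 5, Hoxd3 and Hoxd4 were tested and differed between Nicotine and Control by 0.28 (SE 0.159) and 0.38 (SE 0.223), neither past the threshold. Of 24 Hox genes of groups 6 to 13, which pattern the trunk and tail, 13 were tested, 12 were above Control and the median was 0.56. Over all probes 51.4% were above Control. With the block 4 of the 13 rose, against 0.668% of all probes called higher. They were Hoxc10 by 1.497 (SE 0.447, adjusted p 0.275 without and 0.0215 with the block), Hoxd9 by 0.95 (0.247 and 0.0222), Hoxd8 by 0.86 (0.216 and 0.0158) and Hoxc6 by 0.63 (0.287 and 0.0273). Without replicate 6 or 7 the blocked fit called 0 probes of the array. None passed without the block. Hoxb1 was thus the only tested gene of groups 1 to 5 past the threshold with the block, and its 0.74 lay among the values of the trunk and tail genes.

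Among regulators upstream of Hox genes, 13 were tested and 9 were above Control in Nicotine with a median of 0.07, against 51.4% of all probes. With the block 3 rose, against 0.668% of all probes called higher. These were the caudal factors Cdx2, Cdx4 by 0.84 (adjusted p 0.502 without and 0.0345 with the block) and Cdx1 by 0.50 (0.273 and 0.0445). Cdx2 and Cdx4 are also in the tail bud list, so their calls were counted there too. The other tested upstream regulators, mostly of the Polycomb and trithorax groups, did not pass. Of 11 tested genes of retinoic acid synthesis, breakdown and reception, 6 were above Control with a median of 0.07 and none passed, the smallest p belonging to the receptor Rarg at 0.18 and the carrier Crabp2 at 0.12. Of 8 tested PBX, MEIS and PKNOX cofactors 4 were above Control with a median of 0.01, and none passed. Pknox2 differed by 0.27 (adjusted p 0.689 without and 0.0775 with the block) and Pbx4 by 0.21.

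Genes of the hindbrain and arches gave no common direction in Nicotine. Of 9 tested genes 3 were above Control, with a median of -0.15, against 51.4% of all probes above Control. With the block Gbx2, which sets the front edge of the hindbrain, rose by 0.67 (adjusted p 0.216 without and 0.0273 with the block), and Nr2f2, a nuclear receptor gene, fell by 0.37 (0.755 and 0.0158). Tbx1, the arch gene of the 22q11 deletion region in humans, differed by -0.56 (0.681 and 0.144). Of 5 tested forebrain and midbrain genes 4 were above Control, with a median of 0.37, and none passed, Dmbx1 at 0.54 and Otx2 at 0.37 having the smallest p. Of 10 genes of extraembryonic and maternal tissue 6 were above Control with a median of 0.03. Only Cdx1 passed, with the block, and this is the same call already counted among the upstream regulators. Prl2c3, a placental hormone gene, differed by -1.13 (SE 0.728, adjusted p 0.913 without and 0.450 with the block). Egr2, Epha4 and Fgf3, which mark hindbrain segments, were below the minimum, so the segment pattern itself could not be read.

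After ethanol no gene of any list passed in either fit, and the genes named here are those of smallest p. Over all probes 50.9% lay above Control. The medians were 0.10 for Hox genes of groups 6 to 13 (9 of 13 above Control), 0.06 for the cofactors (7 of 8), 0.08 for the upstream regulators (10 of 13), 0.01 for the retinoic acid pathway (6 of 11), -0.03 for tail bud genes (3 of 10), -0.04 for later-stage genes (2 of 10), -0.00 for hindbrain and arch genes (4 of 9) and 0.01 for forebrain and midbrain genes (3 of 5). For genes of extraembryonic and maternal tissue the median was 0.26 (8 of 10), with Prl2c3 at -1.98 (SE 0.728, adjusted p 0.99998 without and 0.99 with the block). The summed intensity of these 10 genes ran from 3699 over a median of 6342 to 40246 in Control and from 4772 over 6932 to 19756 in Ethanol, and its part in the Ethanol values of the anterior Hox genes was not tested. In the retinoic acid list the 2 synthesis genes with the smallest p went opposite ways, Aldh1a2 at 0.32 (SE 0.162) and Aldh1a3 at -0.36 (SE 0.182). Meox1, a somite homeobox gene, was at 0.33 (SE 0.167) and Gata2 at 0.07. Hoxd3 and Hoxd4 were at 0.03 and -0.02, and Hoxd8 and Hoxd9 at 0.35 (SE 0.221) and 0.41 (SE 0.258). The cofactors Meis2 and Meis3 were at 0.11 and 0.13. Of the upstream regulators Cdx1 was at 0.18 and the Polycomb gene Suz12 at 0.08. Cdx4 and Fgf8 of the tail bud list were at -0.30 and -0.18. Otx1 and Otx2 of the forebrain and midbrain were at -0.25 and -0.24, and the cartilage genes Col2a1 and Sox9 at -0.11 and -0.07.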

How the data were processed

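RNA of 36 whole embryos was measured on Illumina bead arrays. Per the submitters' processing notes GenomeStudio 1.9.0 was used. The authors deposited linear-scale intensity, 1 value per probe and embryo. How background was corrected and arrays were normalized is not given in the sources used here. No value was at or below 0. The deposited intensity was turned into log2(intensity + 16) here, and log2 differences were taken between group means. A further 72 signal and detection columns, named by running numbers that match no label, were not used. Gene symbols came from the platform annotation: 34885 probes had 1 symbol, 18 several and 10378 none.

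Probes with an intensity of at least 32 on at least 12 arrays were fitted with limma 3.58.1 in R 4.3.3 (lmFit and eBayes on all 36 arrays, 33 residual degrees of freedom, two-sided, Benjamini-Hochberg over the 16927 kept probes, threshold 0.05). The step was checked on simulated data. Alternatives were the replicate number as a block (22 residual degrees of freedom), the replicate set as a fixed effect, a pseudocount of 1, no filter, median centring, trend and robust eBayes, and leaving out each replicate. Within-set differences came from a fit with a mean per group and set (30 residual degrees of freedom). In all 36 pairs of equal number the arrays' deviations correlated above 0.1 (mean 0.589, lowest 0.243). Arrays with different numbers in the same set correlated at a mean of 0.474, and arrays of different sets at -0.489. Arrays of equal number always lie in the same set, so passing 0.1 does not by itself show a pairing by number. The labels do not state a pairing, and the block takes the numbers as pairs by assumption. Correlations between genes are Pearson's r.

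The anterior Hox genes and the gene lists were chosen with earlier results of these data known. All probes of the 9 genes were named. From each list, up to 3 genes past the threshold by size and the 2 of smallest p in a contrast with Control were named, and for each member the 3 genes of highest r. For these, the kept probe of highest mean level stood for a gene. The number of arrays limits the precision.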

Additional observations from a re-analysis of the deposited data

How the results depend on the processing

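Among the tested anterior Hox probes, the other settings kept direction and side of the threshold in 196 cases, and the 2 exceptions were the Hoxb1 probes in Nicotine against Control, which passed with the replicate block. Leaving out a replicate kept 745 cases, moved 15 past the threshold (Hoxb1, blocked) and turned the sign of 32, all uncalled. The number of anterior Hox probes past the threshold in Nicotine against Control was 0 without and 2 with the block, and 0 to 2 when a replicate was left out of the blocked fit. Over all probes that comparison gave 1 without the block, 194 with it, 3 with the set as a fixed effect, 0 without the filter, 0 to 1 without a replicate and 0 to 256 without a replicate of the blocked fit. It was 0 without replicate 6 or 7 and 1 without replicate 2, and the cause was not tested. Nicotine against Ethanol gave 0, 69 with the block, 0 to 6 without a replicate (6 without replicate 5) and 0 to 178 for the blocked fit (0 without replicate 2, 6 or 8). Ethanol against Control gave 0 under every setting run. Signs that turned without a replicate were, as ranges, Hoxb2 -0.0103 to 0.102 and Hoxb4 -0.0359 to 0.0497 in Ethanol against Control. In Nicotine against Control they were Hoxa2 -0.153 to 0.0286 and -0.127 to 0.0128 and Hoxb3 -0.0145 to 0.0745 and -0.0551 to 0.109. In Nicotine against Ethanol they were Hoxa5 -0.215 to 0.0525 and Hoxb2 -0.0405 to 0.0984. The block changed no other call of an anterior Hox probe. Dim signal limits Hoxb3 and prevents a reading of Hoxa3.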
